A study of Mus musculus with 2 samples.

Results

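The 33 genes described here encode proteins that pair, break and recombine chromosomes in meiosis, together with the factors that start it. The list was drawn up by known function with earlier results of these arrays in view, and no measured value enters the rule. Every probe set whose only gene symbol in the array annotation was on the list was taken. Of the 33 genes, 31 had a probe set, 40 probe sets in all, and Rnf212 and Rad21l had none under these symbols. To be measured, a gene needed a signal of at least 80.7, the median of all values on both arrays, in either pool. By that rule 23 of the 33 were measured, among 12308 measured genes in the series. All 23 had signals above this minimum in both pools, so none entered through the brighter pool alone.

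Ovaries came from mice at 2 days of age. The control pool held RNA of 8 Amhr2(+/+)-SmoM2 mice, which carry the SmoM2 allele and no Cre, and the mutant pool held RNA of 8 Amhr2(cre/+)-SmoM2 mice. SmoM2 is a constitutively active form of the hedgehog signal transducer Smoothened, and Cre placed at the Amhr2 locus turns it on in somatic cells of the gonad. Cre and the altered Amhr2 copy are present only in the mutant, so their effects and that of SmoM2 cannot be told apart. From each pool 1 ug of RNA was labelled and hybridised to 1 Affymetrix array, and both arrays had the same trimmed mean signal of 500.003, so a signal is relative to the rest of the RNA. With 1 array per group there was no replicate error and no test, and every count below describes these 2 arrays. Where a gene had several probe sets their log2 ratios could be compared, and these had an SD of 0.385 over 5118 genes (0.472 at the dimmest and 0.318 at the brightest signals).

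In meiotic prophase, sister chromatids are held by cohesins that contain meiosis-specific subunits, and a protein axis forms along them. Spo11 cuts the DNA, the strand exchange proteins use the homologous chromosome for repair, and the synaptonemal complex zips the homologues together while some repair sites mature into crossovers. In the mouse ovary this happens before birth, and around birth oocytes arrest at the end of prophase and enclose themselves in follicles. Many of these genes are silent in somatic cells, where E2F6 and the MGA and MAX proteins recruit repressive complexes to their promoters.

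Promoters are shown first because several of these genes are known to share sites for those repressors. RefSeq promoter windows (GRCm38.p6) ran from 250 bases before to 50 bases after the start site, and 28 of the 33 genes had one (Tex11, Meiob, Tex15, Spo11 and Ythdc2 did not). The last 180 bases before the start are printed for the synaptonemal complex genes with the lowest ratios (Syce1, Sycp1 and Tex12), the cohesin genes with the lowest ratios (Smc1b and Stag3) and Sycp3, whose ratio was nearest 0 in its group. Each runs 5′ to 3′ on the strand of the gene, and capitals mark TCCCGC, the core of E2F sites, or CACGTG, the E-box, on either strand.
Syce1 (chr7:140787855-140788034, minus strand): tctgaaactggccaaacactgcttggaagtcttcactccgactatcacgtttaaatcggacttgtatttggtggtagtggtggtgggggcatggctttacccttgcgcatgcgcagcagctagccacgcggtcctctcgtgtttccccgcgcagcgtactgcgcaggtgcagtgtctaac
Smc1b (chr15:85131958-85132137, minus strand): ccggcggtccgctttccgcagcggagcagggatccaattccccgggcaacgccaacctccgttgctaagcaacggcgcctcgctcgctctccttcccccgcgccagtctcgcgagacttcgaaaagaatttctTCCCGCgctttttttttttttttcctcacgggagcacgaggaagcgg
Sycp1 (chr3:102936101-102936280, minus strand): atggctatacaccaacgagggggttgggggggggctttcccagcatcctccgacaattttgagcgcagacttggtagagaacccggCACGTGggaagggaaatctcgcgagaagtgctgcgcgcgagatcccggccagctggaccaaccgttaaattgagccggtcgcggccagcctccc
Tex12 (chr9:50561269-50561448, minus strand): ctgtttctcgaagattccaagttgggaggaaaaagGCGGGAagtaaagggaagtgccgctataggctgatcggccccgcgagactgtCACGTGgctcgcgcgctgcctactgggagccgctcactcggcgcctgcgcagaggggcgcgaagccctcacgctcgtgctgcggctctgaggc
Stag3 (chr5:138280329-138280508, plus strand): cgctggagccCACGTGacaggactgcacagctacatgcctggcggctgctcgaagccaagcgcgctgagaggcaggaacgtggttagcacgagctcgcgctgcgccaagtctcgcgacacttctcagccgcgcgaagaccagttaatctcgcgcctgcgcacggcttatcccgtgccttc
Sycp3 (chr10:88459407-88459586, plus strand): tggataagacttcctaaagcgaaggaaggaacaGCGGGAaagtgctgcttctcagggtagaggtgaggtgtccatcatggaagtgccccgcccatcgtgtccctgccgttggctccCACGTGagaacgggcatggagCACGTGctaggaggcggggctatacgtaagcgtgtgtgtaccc

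The Smc1b stretch held 1 E2F core, whose first base lay at -47 from the start site, and no E-box. Tex12 held an E2F core at -145 and an E-box at -93. Sycp3 held an E2F core at -147 and E-boxes at -64 and -43. The E-box of Sycp1 lay at -94 and that of Stag3 at -170, while their E2F cores overlapped or followed the start site and so lie outside the printed stretch. Syce1, whose log2 ratio was the lowest of the members, held neither motif in its whole window of 300 bases.

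Of the 28 genes, which have 32 promoter windows, 17 (60.7%) held the E2F core in at least 1 window, against 3979 of 9953 measured genes and 22.1% of all 27025 genes in the promoter table. The E-box was found in 7 of the 28, against 11.7% of measured genes and 8.09% of all genes. All 7 genes with an E-box (Hormad1, Rnf212, Stag3, Syce2, Sycp1, Sycp3 and Tex12) held an E2F core as well, a combination found in 4.56% of measured genes and 2.32% of all genes. CCTCAG, the core of the motif of the meiotic initiators STRA8 and MEIOSIN, was found in 12 (42.9%), against 30.2% and 29.4%. The promoters of the 28 genes held a median of 19.5 CG dinucleotides, those of measured genes 20.5 and those of all genes 7. Among the 19 measured genes with a window, the E2F core was present in 7 of the 8 that were at least 1.5-fold lower and in 6 of the other 11, counts too small to compare. A match describes letters in a window and no factor binding was measured.

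**Figure D1:**
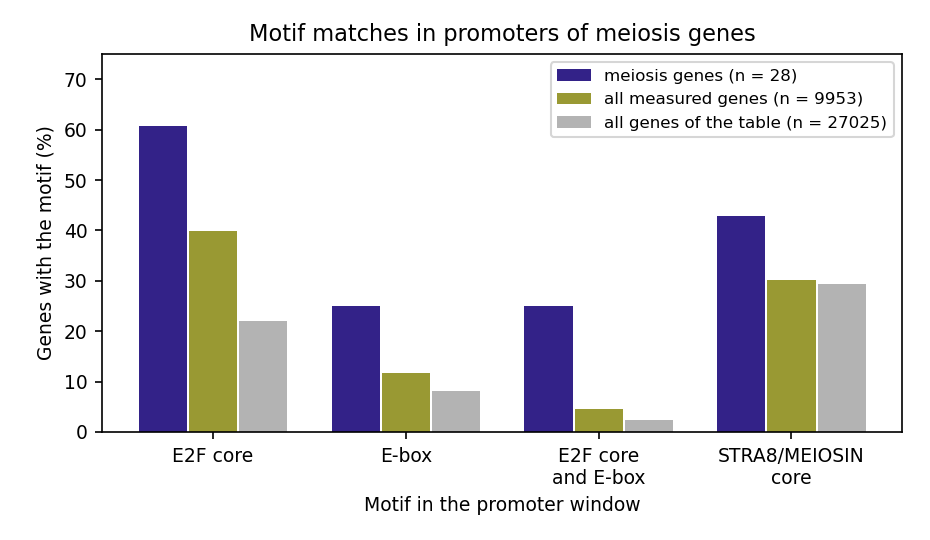
Share of genes (%) whose promoter window holds each motif on either strand, for the 28 meiosis genes, 9953 measured genes and all 27025 genes of the promoter table. The E2F core together with the E-box was found in 7 of the 28 meiosis genes, 4.56% of the measured genes and 2.32% of all genes.

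The measured meiosis genes were mostly lower in the mutant pool. Log2 ratios of mutant to control signal, taken after 22.2 was added to both signals (the 25th percentile of all values), were below 0 in 20 of the 23, where 52.5% of all measured genes were. Of the 23, 10 were at least 1.5-fold lower, against a background of 7.90%, and 2 were at least 2-fold lower, against 1.40%. None of the 23 was at least 1.5-fold higher (background 9.32%) or 2-fold higher (3.21%). The median log2 ratio was -0.55, and that of all measured genes was -0.02. In RNA of a whole organ on a common scale, fewer germ cells, less RNA per germ cell and more RNA from other cells cannot be told apart. Ranked by ratio, the 10 genes were Syce1, Smc1b, Mnd1, Stag3, Sycp1, Tex12, Tex11, Hsf2bp, Meiob and Brca2. The 1.5-fold line fell between Brca2 at -0.60 and Syce2 and Msh4 at -0.56 and -0.55, a gap far smaller than the probe-set SD. When ratios were centred on housekeeping genes the median of all genes moved by -0.11 to -0.13, and the background at 1.5-fold became 11.9% lower and 6.91% higher.

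**Figure D2:**
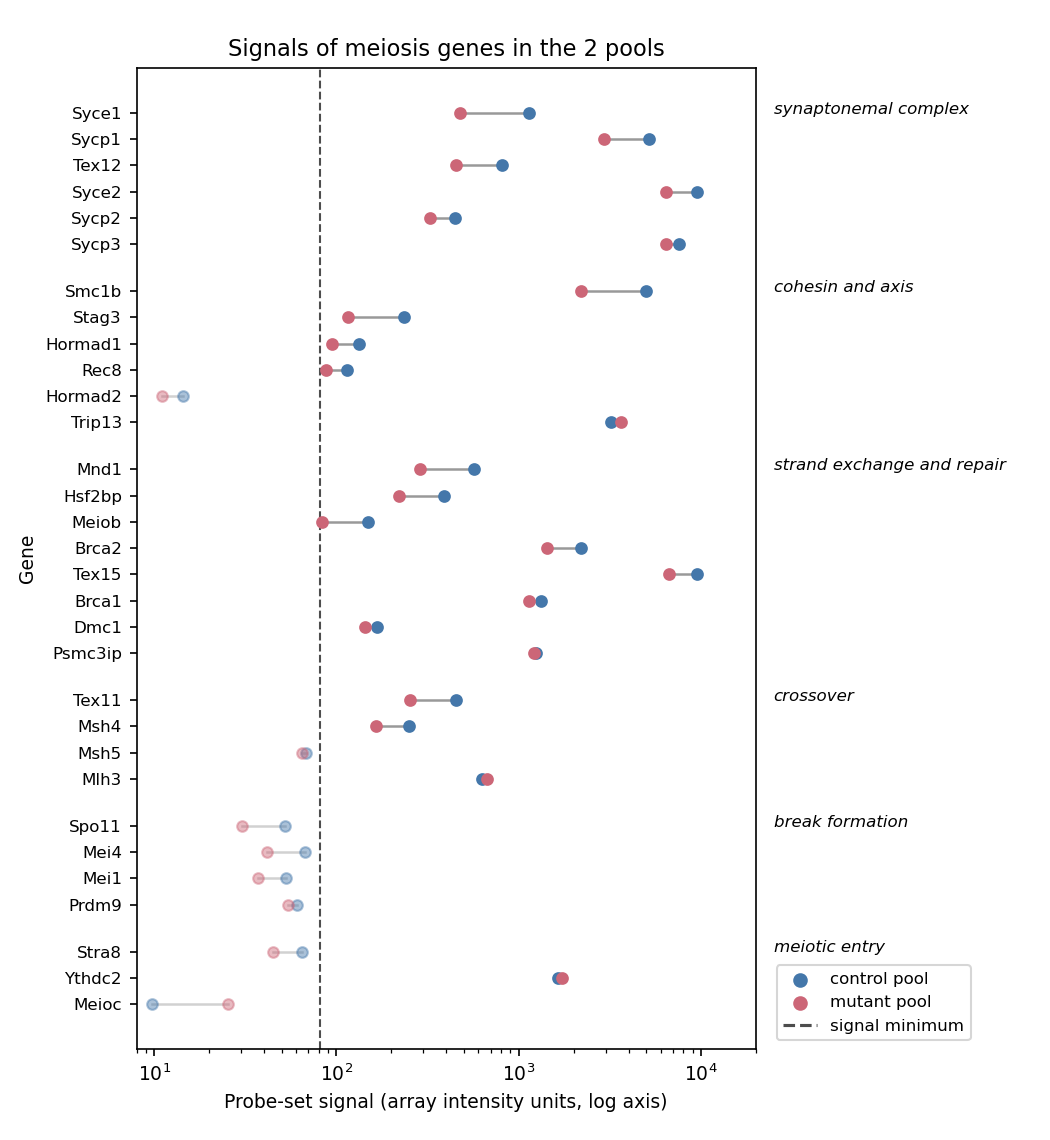
Signals of the 31 genes with a probe set in the control pool (blue) and the mutant pool (red), on a log axis, 1 probe set a gene, grouped by role. Faded points are the 8 genes under the signal minimum of 80.7 (dashed line) in both pools. The red point lies left of the blue one for 20 of the 23 measured genes.

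All 6 synaptonemal complex genes were measured and all had ratios below 0, with a median of -0.68. Syce1, a protein of the central element in the middle of the complex, had 1131.7 in control and 477 in mutant ovaries, 42.1% of the control (log2 ratio -1.21). Only 0.634% of all measured genes had a lower ratio. Sycp1, the transverse filament that bridges the homologues, had 5167.3 in control and 2927.7 in mutant ovaries (56.7%, log2 ratio -0.81). Both genes were below the median of the group. Of the other genes for proteins between the homologues, Tex12 was also below it (-0.80) and Syce2 was above it (-0.56).

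Tex12, which forms a complex with Syce2 in the central element, had 809.2 in control and 454.8 in mutant ovaries (log2 ratio -0.80). Its partner Syce2 had 9434.0 and 6395.9 (-0.56). The lateral element genes differed least, although the ratio of Sycp2 was close to that of Syce2. Sycp2 had 446.9 in control and 324.2 in mutant ovaries (-0.44), and Sycp3, the main lateral element protein and a usual marker of prophase oocytes, 7600 and 6433.3 (-0.24). The ratios of Syce1 and Sycp3 were 0.97 apart on the log2 scale, but each rested on 1 probe set. The probe-set SD of 0.385 describes spread within a gene on these same arrays, so it gives no error for a difference between genes.

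Of the 7 cohesin and axis genes, 5 were measured, with a median log2 ratio of -0.40. Smc1b, the meiotic version of the Smc1 arm of the cohesin ring, had 4999 in control and 2203.4 in mutant ovaries (44.1%, log2 ratio -1.17). Stag3, the meiotic subunit that clasps the ring, had 234.9 and 116.3 (49.5%, -0.89). Among all measured genes, 0.715% had a lower ratio than Smc1b and 2.25% a lower ratio than Stag3. Rec8, the kleisin that closes the ring and is cleaved when meiotic chromosomes separate, had 113.7 in control and 87.5 in mutant ovaries (-0.31). Hormad1, an axis protein that promotes break formation and marks unpaired axes, had 132.7 and 95 (-0.40). Rec8 and Hormad1 were close to the signal minimum in both pools, where the probe-set spread was widest.

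Trip13, the ATPase that removes Hormad proteins from paired axes and also acts on the spindle checkpoint of dividing cells, was the member with the highest ratio. Its brightest probe set had 3220.6 in control and 3654.0 in mutant ovaries (log2 ratio 0.18). The other probe sets had 414.6 and 387.6 (-0.09), and 89.1 and 45.4 (-0.72, with only the control above the minimum), so the mean over the 3 was -0.21 and the direction for Trip13 depended on the probe set. The remaining axis gene, Hormad2, had 14.4 in control and 11.0 in mutant ovaries, under the signal minimum in both.

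The meiotic cohesin subunits were set beside their relatives in dividing cells. Smc1a, the relative of Smc1b, had 2185.1 in control and 1889.9 in mutant ovaries (log2 ratio -0.21), a difference of -0.97 between Smc1b and Smc1a. Stag2, the relative of Stag3, had 6815.5 and 9015.6 (0.40), but its other probe set had 429.7 and 317.6 (-0.41). Stag1, named after its values were seen, ranged from -0.44 to 0.15 over 5 measured probe sets. The ratio of Stag3 was thus lower than that of each measured probe set of both relatives. Rad21, the relative of Rec8, had 2967.6 in control and 4668.4 in mutant ovaries (0.65), with 0.74 and -0.05 on its other probe sets. Over the 14 cohesin genes of dividing cells, loaders and regulators included, the median was -0.17. Of the 14, 0 were at least 1.5-fold lower and 1, Rad21, was at least that much higher. The shares over all measured genes were 7.90% and 9.32%, so in 14 genes these counts were near the background. The largest ratios below 0 in that list were those of Hdac8 (-0.56), the deacetylase of Smc3, Cdca5 (-0.48), which protects cohesin in mitosis, and Mau2 (-0.31), a cohesin loader. Some dimmer probe sets of this list were lower: Mau2 had -0.40, -0.69 and -0.94 on its other measured probe sets. Nipbl, the partner of Mau2, named after its values were seen, had -0.21 on the brightest and from -1.21 to 0.48 on the other measured ones. The count of 0 genes at least 1.5-fold lower therefore rests on the brightest probe set of each gene. Pds5b, a cohesin regulator, had 0.30, with its 3 measured probe sets from -0.72 to 0.40.

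**Figure D3:**
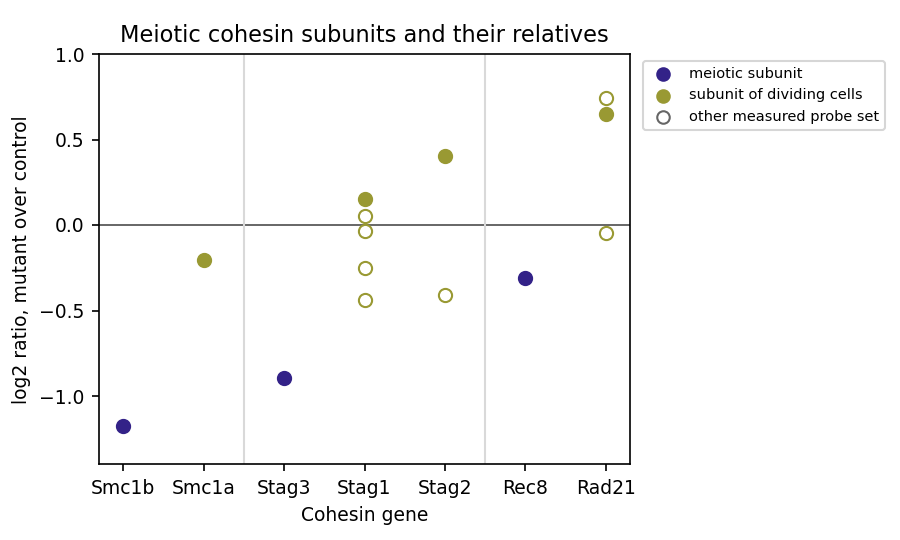
Log2 ratio of mutant to control for the meiotic cohesin subunits Smc1b, Stag3 and Rec8 and their relatives in dividing cells, every measured probe set. Filled points are the brightest probe set of each gene, at -1.17 for Smc1b and -0.21 for Smc1a, at -0.89 for Stag3 and 0.40 for Stag2, and at -0.31 for Rec8 and 0.65 for Rad21, and open points are the others.

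Genes for the exchange and repair of DNA strands were all measured, 8 of 8, with ratios below 0 and a median of -0.56. Mnd1, the partner of Psmc3ip (Hop2) in helping Dmc1 capture the homologue, had 567.6 in control and 287.8 in mutant ovaries (50.7%, log2 ratio -0.93). Psmc3ip itself, which is also expressed outside the germ line, had 1250 and 1219 (-0.04), with -0.16 on its other probe set, and its ratio turned to 0.01 when ratios were centred on all measured probe sets. The 2 partners of this complex therefore lay 0.89 apart on the log2 scale. Dmc1, the meiotic recombinase, had 167.2 in control and 144 in mutant ovaries (-0.19), and its other probe set was under the minimum in both pools.

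Hsf2bp, which brings Brca2 to meiotic breaks, had 390.4 in control and 221.5 in mutant ovaries (log2 ratio -0.76), and a second probe set, above the minimum in the control only, had 89.4 and 58.9 (-0.46). Meiob, a single-strand binding protein of meiosis, had 149.7 in control and 83.2 in mutant ovaries (-0.71). The mutant signal of Meiob was just above the minimum, on its only probe set. Brca2, which loads recombinases in meiosis and in dividing cells, had 2191.1 in control and 1436.1 in mutant ovaries (-0.60). Brca1, its partner in repair, had 1328 and 1135.7 (-0.22), with 94.7 and 59.2 on a probe set above the minimum in the control only (-0.52). A Brca1 probe set under the minimum in both pools had 63.4 and 76.6, the other way. Tex15, which acts in meiotic repair and in transposon silencing, was among the brightest at 9446.6 and 6632.7 (70.2%, -0.51). On its brightest probe set each of these 5 genes had the lower signal in the mutant pool.

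Of the 5 crossover genes, 3 were measured. Tex11, an X-linked protein that stabilises crossover intermediates, had 453.5 in control and 252.2 in mutant ovaries (55.6%, log2 ratio -0.79). Msh4, which with Msh5 clamps those intermediates, had 251.4 and 164.9 (-0.55). Mlh3, which takes part in cutting them and in mismatch repair, had 628.5 in control and 665.2 in mutant ovaries (0.08, and -0.03 when centred on housekeeping genes). Msh5 was under the minimum on both of its probe sets, at 67.9 and 43.0 in the control and 65.1 and 21.8 in the mutant pool.

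The genes for making breaks were all too dim to measure. Spo11, the enzyme that cuts, had 52.3 in control and 30.4 in mutant ovaries. Mei1 had 52.8 and 37.1 and Mei4 had 66.8 and 41.5, both needed for Spo11 to cut. Prdm9, which chooses the sites, had 60.7 and 54.0. Control probe sets for Bacillus transcripts, absent from mouse RNA, had a median of 5.05 and reached 26.9. The signals of these 4 genes were above that highest value and below the minimum, so no fold is given.

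Meiotic entry was represented by 1 measured gene. Ythdc2, an RNA helicase that works with Meioc to hold the meiotic programme and is expressed in other tissues too, had 1636.1 in control and 1730 in mutant ovaries (log2 ratio 0.08, and -0.03 when centred on housekeeping genes). Stra8, the retinoic acid induced factor that starts meiosis, had 64.7 and 45.0, and Meioc 9.7 and 25.5, all under the minimum. Of 15 genes of the retinoid and BMP signals that induce entry, 9 were measured. Of the 9, 3 were at least 1.5-fold higher (background 9.32%). At least that much lower was 1 of the 9, near the background of 7.90%. The counts were the same over the 7 genes above the minimum in both pools. Cyp26b1, which breaks down retinoic acid, had 87.5 in control and 331.9 in mutant ovaries (1.69). Aldh1a3, which makes it, had 137.2 and 488.8 (1.68), and its other probe sets were dim in both pools. Bmp2 had a ratio of 0.78, Stra6, a retinol uptake receptor above the minimum in the mutant pool only, 0.40, Aldh1a1 0.39, and Crabp1, a retinoic acid binding protein, -0.79. The other 3 measured genes, Aldh1a2, Rarb and Rarg, had 0.18, 0.16 and 0.36, short of 1.5-fold. Rarg, like Stra6, was above the minimum in the mutant pool only.

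**Figure D4:**
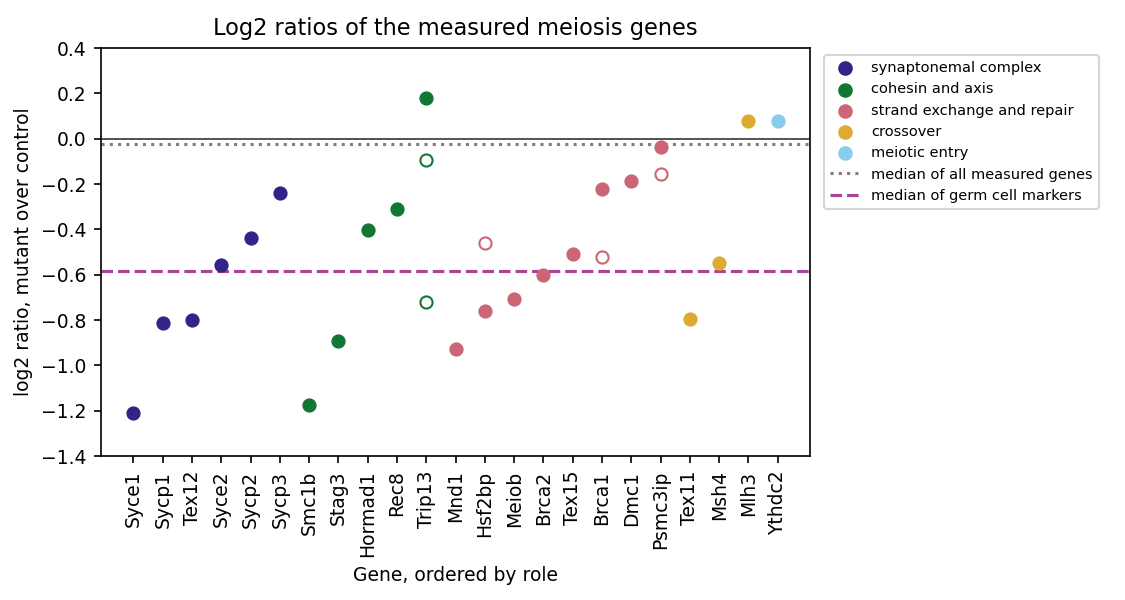
Log2 ratio of mutant to control for every measured probe set of the 23 measured meiosis genes, coloured by role. Filled points are the brightest probe set of a gene and open points the others, the dotted line is the median of all measured genes (-0.02) and the dashed line that of germ cell markers (-0.59). The members spread from -1.21 (Syce1) to 0.18 (Trip13).

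Other genes of meiosis and meiotic germ cells, listed by function and not among the 33, were also mostly lower in the mutant pool. Of 45, 24 were measured, and the median was -0.44. Of the 24, 20 had ratios below 0, 8 were at least 1.5-fold lower and 0 as much higher (backgrounds 52.5%, 7.90% and 9.32%). Ccnb3, a germ line cyclin, had 128.7 in control and 34.2 in mutant ovaries (-1.42), and counts as measured through the control pool alone. Over the 23 genes above the minimum in both pools, 7 were at least 1.5-fold lower, 5 at least 2-fold, and the median was again -0.44. Zfp541, a chromatin factor of meiotic germ cells, had 225.6 and 87.7 (-1.17). Ccnb1ip1 (Hei10), a ligase that limits crossover sites, had 1529.1 and 711 (-1.08).

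Shcbp1l had 884.1 in control and 412 in mutant ovaries (-1.06). Rec114, a partner of Mei4 in break formation, had 459.4 and 212.9 (-1.03), and -0.58 on its other probe set. Syce3, a central element protein like Syce1 and Tex12, had 436 and 202.5 (-1.03). These 6 genes were the ones at least 2-fold lower among the 24.

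Germ cell and oocyte markers that were on neither list of meiosis genes differed in the same direction, as did pregranulosa markers. All 24 markers of germ cells and oocytes were measured. On the brightest probe set of each, all had ratios below 0 (background 52.5%), with a median of -0.59. A dim second probe set of Kit went the other way, with 96.2 in control and 107.2 in mutant ovaries. Against backgrounds of 7.90% and 1.40%, 12 of the 24 were at least 1.5-fold and 4 at least 2-fold lower. Of the 23 above the minimum in both pools, 11 and 3 were. The summed signal of the 24 markers was 104277 in control and 72256.6 in mutant ovaries, and that of the 23 meiosis genes 51750.1 and 37141.4. All of these markers except Tdrd1 had signals above the minimum in both pools. Tdrd1, a piRNA factor, had 131.3 in control and 18.4 in mutant ovaries, under the minimum there, and Sohlh1, a transcription factor of early oocytes, had 876.6 and 365.9 (-1.21). Uchl1 had -1.13, Tdrd9 -1.08, Figla -0.96 and Pou5f1 -0.88. Centred on the median of this list, a setting chosen after the data were seen, the meiosis genes had a median of 0.038. Of the 23, 10 were below 0, and 2 (Syce1 and Smc1b) were still at least 1.5-fold lower. Under that setting all measured genes had a median of 0.56, with 7.84% below 0 and 0.739% at least 1.5-fold lower. Centring subtracts the same value from every ratio, so it cannot change the difference in median between the meiosis genes and all measured genes (-0.53).

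Somatic markers differed in both directions beside these genes. Of 11 pregranulosa markers, all measured, 7 were at least 1.5-fold lower (background 7.90%), with a median of -0.67. Their summed signal was 40609.8 in control and 29332.9 in mutant ovaries. This count, median and sum include Amhr2, whose locus carries Cre in the mutant. Amhr2 had the lowest ratio of the list, with 8590.9 and 3485.5 (-1.30). For this gene the altered copy and a difference in the cells cannot be told apart. Lgr5 and Runx1 had -1.23 and -1.10. Foxl2, the factor that marks the granulosa lineage, had 8096.6 and 4181.9 (-0.95), Nr5a2 -0.84 and Fst -0.67. Gata4 and Kitl lay on the other side, at 0.41 and 0.18, and with the least changed probe set of each gene the median of the list was -0.34.

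All 11 interstitial and theca markers were at least 1.5-fold higher (background 9.32%), with a median of 1.19. Their summed signal was 23595.1 in control and 69656.4 in mutant ovaries. The count, median and sum include Ptch1 and Gli1, targets of the hedgehog pathway that SmoM2 activates. For Ptch1 and Gli1 the active allele and a difference in the cells cannot be told apart. The steroid enzymes Cyp17a1 (38.8 and 7532) and Cyp11a1 (29.6 and 5700) were above the minimum in the mutant pool only. The other 9 were all at least 1.5-fold higher, with a median of 1.13. Star, which carries cholesterol into mitochondria, had 3.99, the hedgehog targets Ptch1 and Gli1 1.51 and 1.19, and Vcan 1.27. Endothelial markers (6 of 6 measured) had a median of 0.57, with Sox18 highest at 0.84. Pecam1 was above the minimum in the mutant pool only, and the other 5 had a median of 0.54. Leukocyte markers (5 of 5) had a median of 0.77, with C1qb highest at 1.15, but with 0.58 and 0.24 on its other measured probe sets. With the least changed probe set of each gene the leukocyte median was 0.40. The surface epithelium list was split, with Krt18 and Krt8 at -0.94 and -0.88 and Upk3b and Msln at -0.08 and 0.26. Its median of -0.48 ran from -0.88 to -0.03 over the planned settings. Of the 3 Sertoli markers, Sox9 (53 in control and 140.9 in mutant ovaries, above the minimum in the mutant only) and Dhh (-0.19) were measured while Amh stayed under the minimum. The ratio of 3' to 5' signal was 8.48 in control and 10.5 in mutant ovaries for beta-actin and 3.28 and 4.98 for Gapdh. The part of these cell types and of RNA quality in the ratios of the meiosis genes was not tested.

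**Figure D5:**
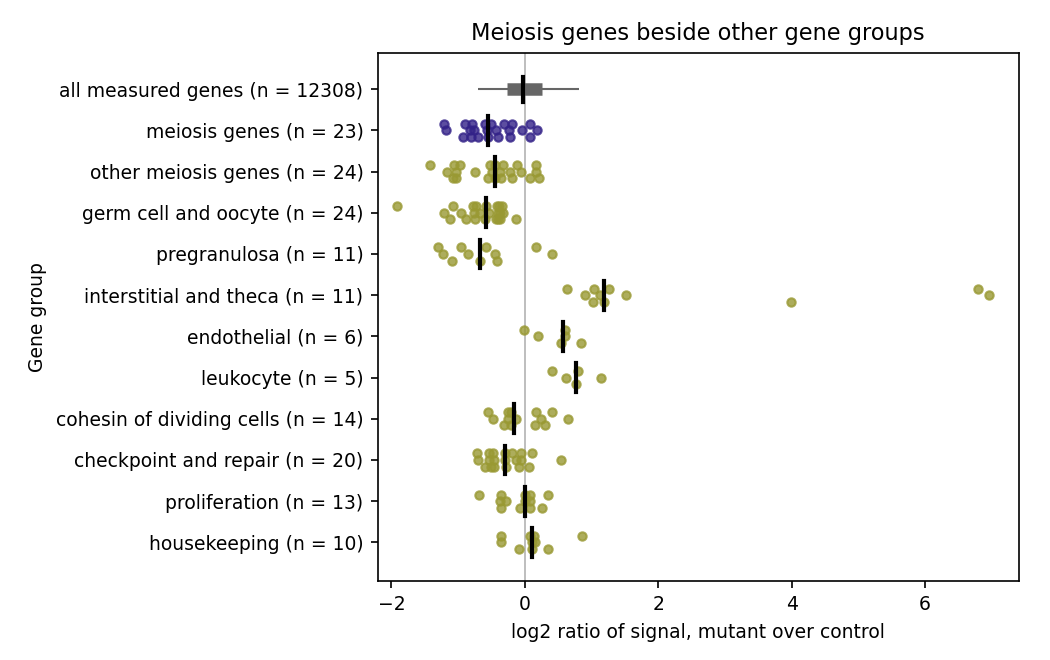
Log2 ratio of mutant to control for the measured meiosis genes and for other gene groups, 1 point a gene. Black lines mark medians (-0.55 for meiosis genes, -0.59 for germ cell and oocyte markers, 1.19 for interstitial and theca markers), and for all 12308 measured genes the thick bar spans the 25th to 75th and the thin line the 5th to 95th percentile.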

How the data were processed

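Signals are linear probe-set intensity values deposited by the authors, 1 column per array of pooled RNA, and the submitters' processing notes name GCOS. Its version, its settings and the step that set the common scale were not given in these sources. Detection calls played no part. The array annotation gave 34958 probe sets 1 gene symbol and 932 several, and 9211 probe sets were not listed. Only probe sets with 1 symbol were named. All 23 measured members matched the RefSeq gene table by gene ID.

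Where several probe sets of a gene were measured, the brightest on average stood for it. No background correction or second scaling was applied. Log2 ratios used a pseudocount of 22.2, which understates the change of dim genes. With 1 array per group no p-value was computed, and precision is limited by the number of arrays. From lists of related genes, up to 6 measured genes with the largest absolute ratio were named (for endothelial and leukocyte markers the first of them), with others where the text says so or where they ran against the rest, and all 33 members were accounted for. The members, lists, motifs and 12 alternative settings were chosen with earlier results of these data known, and 2 further settings after the values were seen. Calculations used Python 3.11.15, numpy 2.4.6 and pandas 2.3.3 and were tested on simulated data. The protein comparison that had been planned was not made.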

Additional observations from a re-analysis of the deposited data

How the results depend on the processing

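Over the 12 planned settings the median log2 ratio of the meiosis genes ranged from -0.66 to -0.44 and the number at least 1.5-fold lower from 7 of 16 measured, under a higher minimum (the 75th percentile of signals), to 13 of 23, centred on the housekeeping list. The median was -0.44 with no filter on low values, which brings in the 8 dim genes, and -0.66 when centred on the housekeeping list. Of the settings added after the data were seen, centring on the germ cell list gave a median of 0.038 and 2 genes at least 1.5-fold lower. All measured genes then had a median of 0.56, with 0.739% at least 1.5-fold lower. Leaving out the 6 members that also work in other cells (Brca1, Brca2, Trip13, Mlh3, Psmc3ip and Ythdc2) gave a median of -0.71 over 17 genes. Of the 10 genes at least 1.5-fold lower, 7 were so under each planned setting that measured them, the exceptions being Hsf2bp, Meiob and Brca2. Of all 23 genes 19 kept their sign, and Trip13, Mlh3, Psmc3ip and Ythdc2 did not. The median of the cohesin genes of dividing cells reached 0.01 at its highest. No paired analysis was possible because each group had 1 pool. Dim genes near the signal minimum had the widest spread between probe sets.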

Other observations

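General DNA damage checkpoint and repair genes, which act in dividing cells as well as in oocytes, had a median log2 ratio of -0.30. Of 26 genes 20 were measured, with 17 below 0, 3 at least 1.5-fold lower and 0 as much higher. The shares over all measured genes were 52.5%, 7.90% and 9.32%. Trp63, whose TAp63 form guards oocytes with unrepaired breaks, had 3604.9 in control and 2213.2 in mutant ovaries (-0.70), and a dim second probe set had 90.6 and 41.1. Rad51c, which acts in strand exchange, had 578.9 and 344.4 (-0.71), with -0.69 on its other probe set. Rpa2, of the single-strand binding complex RPA, had -0.60, and -0.71 on its other probe set. Rad54l and Fancd2 had -0.53 each, although another measured probe set of Rad54l had 0.12. Xrcc3 was on the other side at 0.55, with 55.1 in control and 156.2 in mutant ovaries on its second probe set.

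Proliferation genes had a median of 0.01 over 13 measured genes, with 6 below 0. Birc5, a mitotic survivin that is also expressed in oocytes, had 5888.5 in control and 3642.1 in mutant ovaries (-0.69). It was the only gene of that list at least 1.5-fold lower, and 1 of 13 was near the background of 7.90%. Cdk1 had -0.38, Mcm3 and Bub1 had -0.36, Plk1 0.34 and Mcm2 -0.28, and the other measured probe sets had -0.10 to 0.33 for Mcm3, 0.01 for Bub1 and 0.04 for Mcm2.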
